A study of Rattus norvegicus with 48 samples.

Results

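miR-138 was followed as 3 names of the deposited table: the mature miR-138-5p and the precursor hairpins mir-138-1 and mir-138-2, of 1063 names in all (612 mature and 451 precursor). The names were taken as they stand in the table, over all 48 libraries, and lines that carried one name were added up. miR-138-5p stood on 2 lines, and the other names on 1 line each. The miRNAs were sequenced from amygdala [A] and ventral striatum [V] of Long Evans rats at postnatal day 42. Dams had been injected with ethanol or, for the controls, with saline on gestational day 12. After weaning, non-enriched rats lived with littermates of their own sex, and socially enriched rats lived with unfamiliar rats of their age and sex born to untreated dams. Each library was a pool of equal amounts of RNA from 3 rats of one sex and treatment, with 3 pools per sex, treatment and region, so that a treatment group held 6 libraries per region and a region 24. All rats, controls included, had been exposed to an injection of the dam, and no region was sorted into cell types. Since the tissue was sequenced whole, fewer cells of a type and less miRNA per cell cannot be told apart.

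miR-138 is a brain-enriched miRNA that is found in the dendrites of neurons. It is known for keeping dendritic spines small by repressing Lypla1, an enzyme that removes palmitate from synaptic proteins. Dendritic spines are the small protrusions that carry most excitatory synapses. A pair of genes encode the miRNA, each as a hairpin from which Dicer cuts the same mature strand out of the 5′ arm, while the strands from the 3′ arms differ.

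The sequences are shown because the 2 hairpins share their mature product letter for letter, which bears on how far their levels can be told apart. All 5 names looked up were matched in RefSeq (build GRCr8). The mature strands, with the seed (bases 2 to 8, the main base-pairing region with targets) in capitals, were:
miR-138-5p: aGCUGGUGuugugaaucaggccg
miR-138-1-3p: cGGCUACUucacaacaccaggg
miR-138-2-3p: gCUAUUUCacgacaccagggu
Of 693 mature rat names in that table, 0 others carried the seed of miR-138-5p. The strands of the 3′ arms shared a run of 9 bases (acaccaggg) and had different seeds. The hairpins, with miR-138-5p in capitals, were:
mir-138-1: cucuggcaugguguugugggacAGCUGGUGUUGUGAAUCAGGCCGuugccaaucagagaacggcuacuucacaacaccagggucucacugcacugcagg
mir-138-2: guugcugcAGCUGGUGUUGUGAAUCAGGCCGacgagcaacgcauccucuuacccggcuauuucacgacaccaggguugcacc
mir-138-1 (99 bases) lay on the plus strand at chr8:131178434-131178532, within the spans of the long non-coding RNA genes LOC102550701 and LOC103690480. mir-138-2 (82 bases) lay on the minus strand at chr19:10680133-10680214, within the span of Slc12a3, the gene of a sodium chloride cotransporter. The first bases that follow miR-138-5p were uug in mir-138-1 and acg in mir-138-2, so a read of the 23 mature bases alone has no base that tells the genes apart.

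Every miR-138 name was above 0 in all 48 libraries. Values are given in the deposited unit, called RPM, in which the mature names and the precursor names each add up to 1000000 per library, so the mature and precursor values stand on separate scales. Depth was read from the worth of 1 read in each library. The mature reads came to 363141 to 1287699 per library in the amygdala and to 739464 to 1370412 in the ventral striatum. miR-138-5p rested on 316 to 1610 reads, mir-138-1 on 148 to 654 and mir-138-2 on 216 to 1265. A floor of 3 reads equalled 2.19 to 8.26 RPM of the mature scale, far under each of these levels.

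miR-138-5p had a mean of 987 RPM over all libraries, the 83rd highest of 612 mature names. Levels lay between 588 and 1451 RPM, a range with a coefficient of variation of 19.97%. mir-138-2 had a mean of 618 RPM (118th of 451 precursor names) and mir-138-1 a mean of 359.7 RPM (142nd). The strands of the 3′ arms were far scarcer than miR-138-5p. miR-138-2-3p had a mean of 7.87 RPM, with a median of 7 reads per library. miR-138-1-3p had a mean of 2.33 RPM, was listed at 0 in 3 amygdala and 4 ventral striatum libraries, and reached 3 reads in 8 libraries of each region, so it was mostly under the floor and no change of it is given.

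The first question was whether the regions differed. miR-138-5p ran from 588 over a median of 859 to 1250.3 RPM in the amygdala, and from 781 over a median of 1076 to 1451 RPM in the ventral striatum. The ranges overlapped widely, with 6 of the 24 ventral striatum libraries above every amygdala library and 2 amygdala libraries below every ventral striatum library. The mean was 1076 ± 206 RPM in the ventral striatum and 897 ± 143 RPM in the amygdala (SD, n = 24 each), 19.9% higher in the ventral striatum. The difference in log2(RPM + 1) was 0.25 (SE 0.075), with an adjusted p = 0.0102 (limma, Benjamini-Hochberg over 915 names). A two-sided permutation test of mean RPM gave p = 0.00098. Of all 915 names, 30.3% differed between the regions at an adjusted p under 0.05 and 21.5% were higher in the ventral striatum, so a called difference was common in this comparison. The median difference over all names was 0.084, and the miR-138-5p difference took the 171st place by p.

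The hairpins lay in the same direction. mir-138-1 ran from 216 over a median of 291 to 451 RPM in the amygdala and from 249 over 413 to 577 RPM in the ventral striatum. Its mean was 33.97% higher in the ventral striatum (412 ± 96.5 against 307 ± 61.9 RPM), and 10 of 24 ventral striatum libraries exceeded the whole amygdala range. The log2 difference of 0.41 (SE 0.097, limma adjusted p = 0.0016, permutation p = 6e-05) took the 113th place of 915. mir-138-2 ran from 337 over 558 to 838 RPM in the amygdala and from 470.3 over 663 to 882 RPM in the ventral striatum. Its mean was 15.3% higher (662 ± 126 against 574 ± 97.2 RPM), with a log2 difference of 0.20 (SE 0.077, limma adjusted p = 0.0465, permutation p = 0.00897). Only 3 ventral striatum libraries lay above the amygdala range. miR-138-2-3p was also higher in the ventral striatum, at 9.17 ± 3.25 against 6.56 ± 3.82 RPM (log2 difference 0.58, SE 0.20, limma adjusted p = 0.0274). This strand rests on few reads (0 to 16 in the amygdala, 3 to 18 in the ventral striatum).

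The amygdala and the ventral striatum were dissected from the same rats, while the tests above take the 48 libraries as independent. Which rats went into which pool is not given in the sources used here. The sequencing set of each library is not given either. The ranges of share and the depth group described below were read within a region, so they do not show whether a set held both regions. If a set held libraries of the same region only, region and set cannot be told apart. The p-values of the region tests do not measure a difference between sets that goes with region. With the replicate number within sex and treatment as a block, the adjusted p by limma was 0.0203 for miR-138-5p, 0.0029 for mir-138-1 and 0.0615 for mir-138-2, which lost its call. Library numbers in the labels ran in neighbouring pairs, 1 amygdala and 1 ventral striatum library of the same sex and treatment for all 24 pairs. miR-138-5p was higher in the ventral striatum in 18 of 24 pairs, mir-138-1 in 19 and mir-138-2 in 17. Within a pair the log2 ratio of miR-138-5p ran from −0.26 to 1.15, with a median of 0.22. With these pairs as a random block the adjusted p by limma was 0.0079, 0.0011 and 0.0394 for miR-138-5p, mir-138-1 and mir-138-2.

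The region difference did not hold under each reading of the data. With median-ratio rescaling miR-138-5p differed by 0.19 (limma adjusted p = 0.058) and mir-138-2 by 0.12 (adjusted p = 0.229), both past the threshold no longer, while mir-138-1 differed by 0.33 (adjusted p = 0.0093). With 1 library left out at a time, mir-138-2 lost its call in 31 of 48 cases (log2 difference 0.17 to 0.23, limma adjusted p = 0.0137 to 0.0813). By treatment group, the miR-138-5p difference was 0.04 in non-enriched controls (95% interval −0.27 to 0.35), 0.24 in enriched controls (−0.07 to 0.54), 0.44 in ethanol-exposed non-enriched rats (0.13 to 0.75) and 0.30 in ethanol-exposed enriched rats (−0.0090 to 0.60). None of these passed the threshold after adjustment (limma adjusted p = 0.968, 0.641, 0.0684 and 0.26), where 5.36%, 0.437%, 7.54% and 6.34% of all names were called. By sex it was 0.28 in females (limma adjusted p = 0.0805) and 0.23 in males (adjusted p = 0.137). mir-138-1 differed by 0.44 in females (limma adjusted p = 0.0266) and 0.37 in males (adjusted p = 0.0589), where 14.6% and 15.6% of all names were called. For miR-138-2-3p it was 1.02 in females (adjusted p = 0.0120) and 0.14 in males (adjusted p = 0.812), and the difference between the sexes was not tested.

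**Figure D1:**
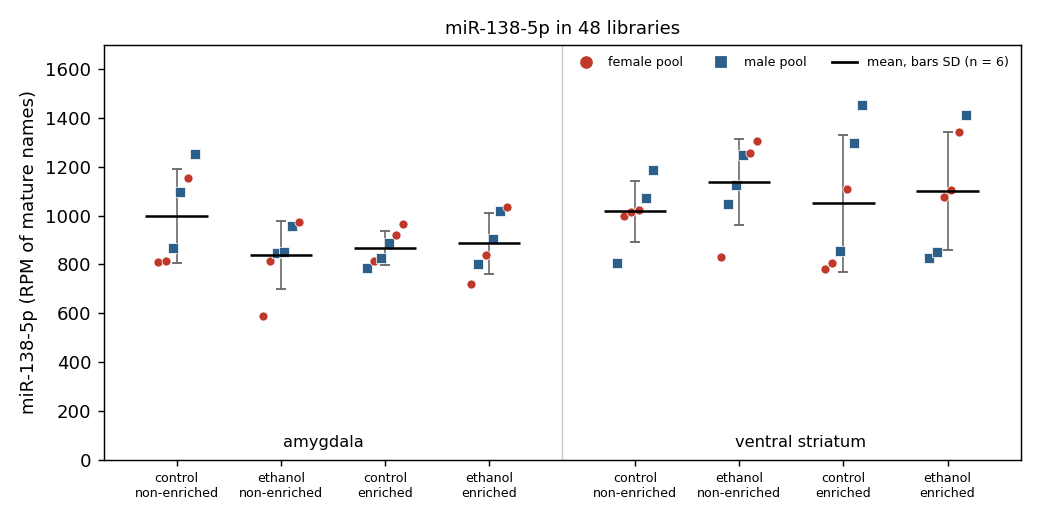
miR-138-5p in RPM of the mature names (vertical axis, from 0) in each of 48 libraries, by region and treatment group (horizontal axis), with circles for female and squares for male pools. Lines mark the mean and bars the SD of 6 libraries, and the ranges of neighbouring groups overlap, from 588 RPM in the amygdala of ethanol-exposed non-enriched rats to 1451 RPM in the ventral striatum of enriched controls.

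Marker miRNAs of other cell types were summed in each region. A list of 7 choroid plexus miRNAs (miR-204-5p, miR-211-5p and members of the miR-34, miR-449 and miR-200 families, all 7 present) summed to 3371 to 136436 RPM in the amygdala (median 16527) and to 4056 to 11365 RPM in the ventral striatum (median 7117). Of the 7, 2 were called lower in the ventral striatum, where 30.3% of all names were called in either direction and 21.5% were called higher. In 13 of 24 amygdala libraries the sum was above that of every ventral striatum library. In those 13 libraries miR-138-5p ran from 588 to 919.98 RPM (median 815), and 0 of them exceeded the ventral striatum median. In the other 11 amygdala libraries it ran from 813 to 1250.3 RPM (median 972), and 3 exceeded that median. Without the 13 libraries, the log2 difference between the regions was 0.092 for miR-138-5p (limma adjusted p = 0.602), 0.28 for mir-138-1 (adjusted p = 0.185) and 0.015 for mir-138-2 (adjusted p = 0.959). This split was chosen after the marker levels were seen. When the choroid plexus names and their hairpins were instead left out of the scaling, the differences were 0.22, 0.38 and 0.17 (limma adjusted p = 0.0185, 0.0030 and 0.0812). The part of the choroid plexus miRNAs in the region difference was not tested beyond these values.

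**Figure D2:**
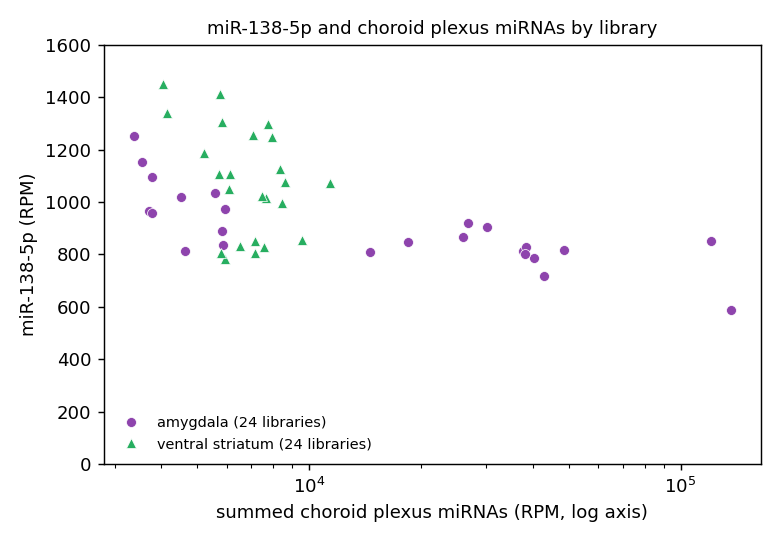
miR-138-5p (RPM, vertical axis from 0) against the summed RPM of 7 choroid plexus miRNAs (horizontal log axis), with 1 point per library, circles for the amygdala and triangles for the ventral striatum. The 13 amygdala libraries to the right of every triangle hold 588 to 919.98 RPM of miR-138-5p, and the 11 others overlap the ventral striatum.

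Oligodendrocyte miRNAs (miR-219a-5p, miR-219a-2-3p and miR-338-3p) summed to 4671 to 15452 RPM in the amygdala (median 7089) and 6218 to 15920 RPM in the ventral striatum (median 10324.0), and all 3 were called higher in the ventral striatum, beside 21.5% of all names. The neuronal miR-124-3p, miR-9a-5p and miR-128-3p summed to 26997 to 51087 RPM in the amygdala (median 41472) and 27500.3 to 53190 RPM in the ventral striatum (median 38361). Of the 3, 1 was called lower in the ventral striatum, where 30.3% of all names were called in either direction and 21.5% were called higher. Microglia and leukocyte miRNAs (4 of 4 present) summed to 478 to 851 and 445 to 757 RPM, red blood cell miRNAs (2 of 3 present) to 8.96 to 44.9 and 12.3 to 41.2 RPM, and vessel wall miRNAs (4 of 4 present) to 25981 to 39548 and 25748 to 68078 RPM, in amygdala and ventral striatum, with 1 vessel wall name called higher in the ventral striatum and 0 called of the others. No listed name that was present was at 0 in all libraries, and both regions held the neuronal miRNAs at high levels.

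The second question was whether prenatal ethanol altered miR-138 in the amygdala of non-enriched rats, A N(EvC). miR-138-5p ran from 809 over a median of 981 to 1250.3 RPM in the controls and from 588 over 850.4 to 972 RPM in the ethanol-exposed rats. The groups overlapped, with 1 ethanol-exposed library below every control library. The means were 998 ± 192 and 839 ± 138.2 RPM (SD, n = 6 each), 15.9% lower after ethanol. The log2 difference was −0.25 (SE 0.13, 95% interval −0.52 to 0.03), with an unadjusted p = 0.0756 and an adjusted p = 0.842 by limma. An exact permutation test of mean RPM gave a two-sided p = 0.139.

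The hairpins did not pass the test in this comparison either. mir-138-1 had 249, 350.3 and 451 RPM as lowest, median and highest value in controls and 236, 285 and 355 RPM in ethanol-exposed rats. Its log2 difference was −0.26 (95% interval −0.60 to 0.08, limma two-sided unadjusted p = 0.12 and adjusted p = 0.842, exact permutation p = 0.123). mir-138-2 had 477, 623 and 838 RPM in controls and 337, 537 and 646 RPM in ethanol-exposed rats. Its log2 difference was −0.27 (95% interval −0.57 to 0.03, limma two-sided unadjusted p = 0.0785 and adjusted p = 0.842, exact permutation p = 0.167). The study listed mir-138-2 as lower for this comparison by RNA-Seq of these same libraries and by microarray of the same pooled RNA. It used a looser, uncorrected threshold for a change in a single direction on both platforms. The like value here is the unadjusted p, which is two-sided. The direction of mir-138-2 here repeats the RNA-Seq part and is not independent evidence, and the microarrays were not analysed here. The median of all 910 names tested was −0.083 in A N(EvC), and after median-ratio rescaling, which shifted it by 0.083, the members stood at −0.14, −0.16 and −0.17. Of all names, 0% were called after adjustment and 4.51% had an unadjusted p under 0.05, and 0 of the 3 members did.

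The summed choroid plexus miRNAs overlapped between these groups. The sum was 3371 to 37610 RPM in the controls (median 9179) and 3776 to 136436 RPM in the ethanol-exposed rats (median 33593), and the 2 libraries with the highest sums of the series (120540 and 136436 RPM, the next being 48702) were both from ethanol-exposed non-enriched rats. Without those 2 libraries the log2 differences were −0.13 for miR-138-5p, −0.20 for mir-138-1 and −0.13 for mir-138-2 (limma adjusted p = 1 for each). Without the amygdala libraries above the whole ventral striatum in that sum, which left 11 libraries over all treatment groups and both sexes, they were −0.27, −0.56 and −0.21. Few libraries of each group were left for these values. The library with the highest sum held 588 RPM of miR-138-5p, the lowest value of all, and the next held 852 RPM, near the median of its group. The part of this tissue in the difference was not tested beyond these values.

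In the amygdala of socially enriched rats, A S(EvC), ethanol made little difference to the levels. miR-138-5p ran from 785 over 858 to 965 RPM in controls and from 718 over 871 to 1035 RPM in ethanol-exposed rats. The log2 difference was 0.024 for miR-138-5p (95% interval −0.25 to 0.30), 0.063 for mir-138-1 and −0.00071 for mir-138-2, with exact permutation p = 0.736, 0.565 and 0.946. Of 910 names, 0% were called after adjustment and 3.85% had an unadjusted p under 0.05. The interaction of ethanol and enrichment in the amygdala was −0.27 for miR-138-5p (SE 0.18, 95% interval −0.66 to 0.12, limma adjusted p = 1), −0.33 for mir-138-1 and −0.27 for mir-138-2, where 0% of names were called and 3.85% had an unadjusted p under 0.05.

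Social enrichment of controls in the amygdala, A C(SvN), shares the non-enriched controls with A N(EvC), and its values stood in the same direction. miR-138-5p was 866 ± 69.6 RPM in enriched and 998 ± 192 RPM in non-enriched controls, a log2 difference of −0.19 (95% interval −0.46 to 0.09, limma adjusted p = 1, exact permutation p = 0.149). The enriched controls were the tightest group of the amygdala. mir-138-1 differed by −0.27 (95% interval −0.61 to 0.07, exact permutation p = 0.0996) and mir-138-2 by −0.16 (−0.47 to 0.14, exact permutation p = 0.201). Without the 13 amygdala libraries richest in choroid plexus miRNAs, the log2 differences were −0.39, −0.46 and −0.36 for miR-138-5p, mir-138-1 and mir-138-2. These values rest on few libraries of each group. In ethanol-exposed rats, A E(SvN), the log2 differences were 0.085 for miR-138-5p (95% interval −0.19 to 0.36), 0.053 for mir-138-1 and 0.10 for mir-138-2, with exact permutation p = 0.552, 0.615 and 0.606. For each of the 2 enrichment contrasts, 0% of names were called and 2.64% had an unadjusted p under 0.05.

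**Figure D3:**
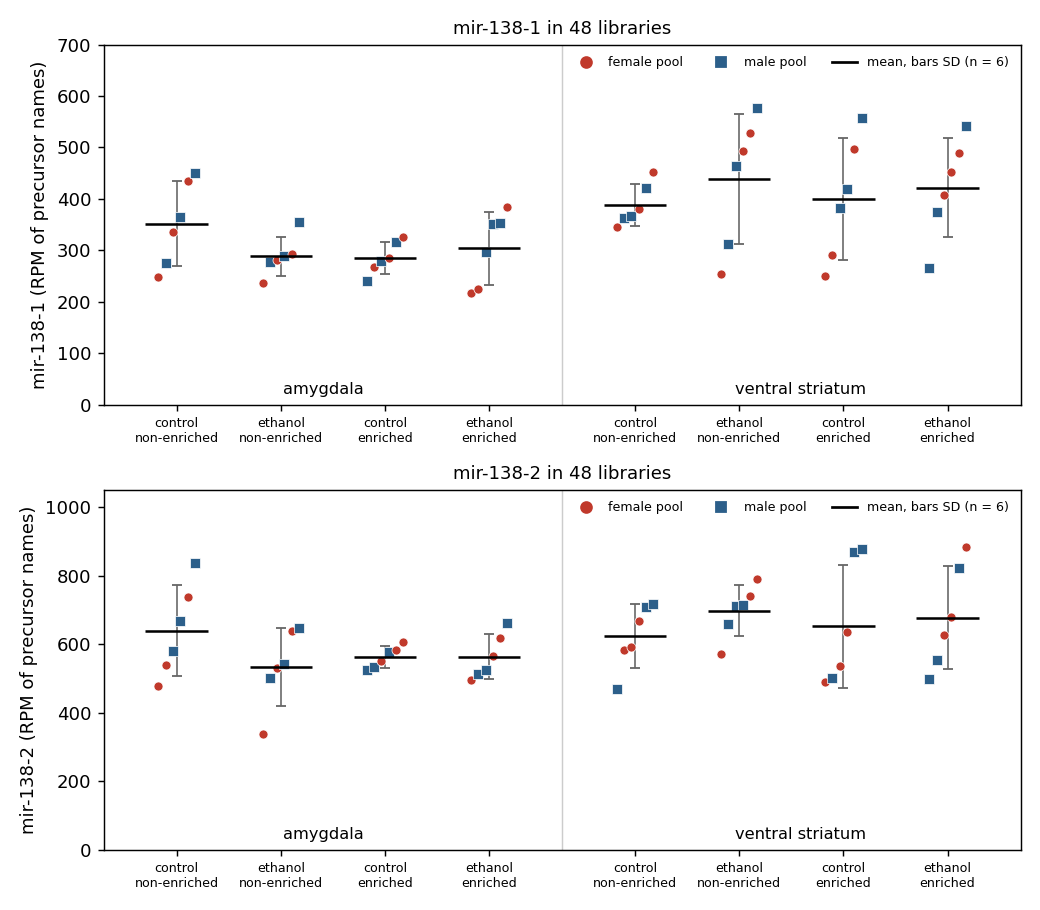
mir-138-1 (upper panel) and mir-138-2 (lower panel) in RPM of the precursor names (vertical axes, from 0) in each of 48 libraries by region and treatment group, with symbols, means and SD as for the mature miRNA. mir-138-1 reached 451 RPM in the amygdala and 577 RPM in the ventral striatum, and within each region the treatment groups overlapped.

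In the ventral striatum, ethanol-exposed non-enriched rats had 832, 1188 and 1305 RPM of miR-138-5p as lowest, median and highest value, and non-enriched controls 807, 1019 and 1187 RPM. 3 of the 6 ethanol-exposed libraries lay above every control. The log2 difference V N(EvC) was 0.15 (SE 0.16, 95% interval −0.19 to 0.50, limma adjusted p = 1, exact permutation p = 0.21). mir-138-1 ran from 344 over 374 to 452 RPM in the controls and from 254 over 479 to 577 RPM after ethanol, where both the lowest and the highest values of the comparison lay. Its log2 difference was 0.12 (95% interval −0.34 to 0.59, exact permutation p = 0.374). mir-138-2 differed by 0.17 (95% interval −0.17 to 0.51, exact permutation p = 0.171). Of 933 names, 0% were called and 2.04% had an unadjusted p under 0.05.

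In socially enriched rats of this region, miR-138-5p ran from 781 over 981 to 1451 RPM in enriched controls and from 827 over 1092 to 1412 RPM in enriched ethanol-exposed rats. V S(EvC) was 0.083 for miR-138-5p (95% interval −0.26 to 0.43), 0.097 for mir-138-1 and 0.069 for mir-138-2, with exact permutation p = 0.714, 0.732 and 0.76 (0% of names called, 2.25% with an unadjusted p under 0.05). V C(SvN) was 0.013 (95% interval −0.33 to 0.36), −0.0055 and 0.036 in the same order (0% called, 3.86% unadjusted). V E(SvN) was −0.058 (95% interval −0.40 to 0.29), −0.032 and −0.065 (0% called, 1.82% unadjusted). The interaction in the ventral striatum was 0.070 for miR-138-5p, 0.027 for mir-138-1 and 0.10 for mir-138-2, with adjusted p = 1 by limma for each (0% called, 2.57% unadjusted).

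Over the 8 treatment comparisons of the 3 members, 24 in all, 0 passed the threshold after adjustment by limma and 0 had an unadjusted p under 0.05, and in none were the groups free of overlap. The smallest p that the exact test allows with 6 against 6 libraries is 0.00216. The strands of the 3′ arms gave no call in these comparisons either. miR-138-2-3p was 9.49 ± 4.43 RPM in non-enriched controls and 5.03 ± 1.91 RPM in ethanol-exposed non-enriched rats in the amygdala (log2 difference −0.65, SE 0.49, limma adjusted p = 0.842, exact permutation p = 0.0498 without adjustment). miR-138-1-3p had group means of 1.69 to 3.76 RPM, near the worth of 3 reads.

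The ethanol difference of non-enriched rats pointed down in the amygdala and up in the ventral striatum. The difference between the regions in N(EvC) was 0.40 for miR-138-5p (SE 0.21, 95% interval −0.03 to 0.83, unadjusted p = 0.0685), 0.39 for mir-138-1 (unadjusted p = 0.169) and 0.44 for mir-138-2 (unadjusted p = 0.0529), each with an adjusted p = 1 by limma. In this comparison 0% of 915 names were called and 3.61% had an unadjusted p under 0.05. The regions differed in the other treatment contrasts by −0.17 to 0.27 over the 3 members.

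**Figure D4:**
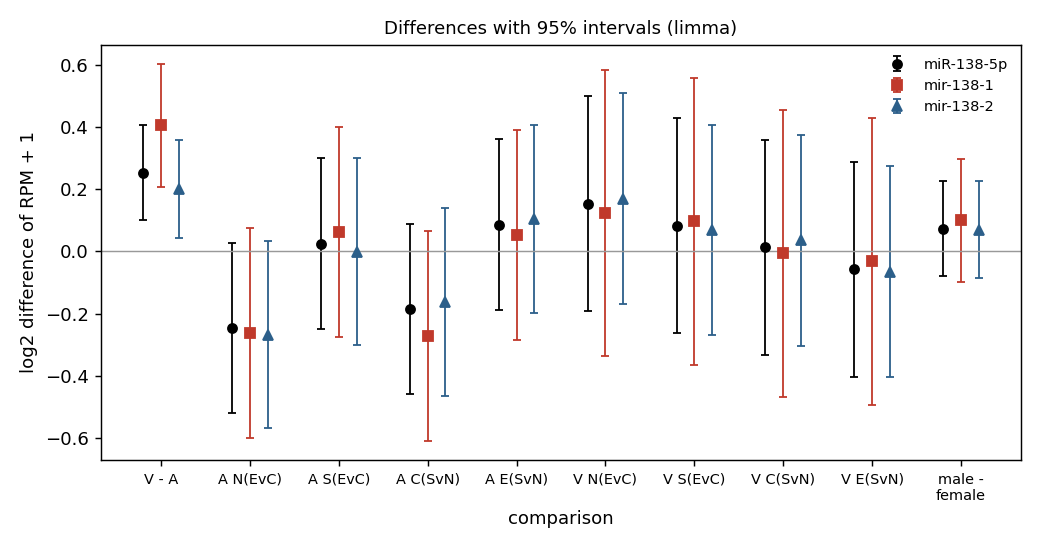
Differences in log2(RPM + 1) (vertical axis) for the 3 miR-138 names between regions, in the 8 treatment contrasts and between sexes (horizontal axis), with 95% intervals from limma as bars. The intervals of the region comparison (V − A) lie above 0, while those of each treatment contrast and of sex include 0.

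Ordered by its median, miR-138-5p was highest in the ventral striatum of ethanol-exposed non-enriched rats (1188 RPM), followed by the other ventral striatum groups of ethanol-exposed enriched rats (1092) and non-enriched controls (1019). The amygdala of non-enriched controls (981.2) and the ventral striatum of enriched controls (981.0) came next. The amygdala of ethanol-exposed enriched rats (871), enriched controls (858) and ethanol-exposed non-enriched rats (850.4) closed the order. Each group overlapped its neighbour in this order. Ranked in the same way, the amygdala of non-enriched controls was the highest of the amygdala groups for all 3 names.

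Males and females did not differ by more than the spread. Over both regions males differed from females by 0.07 for miR-138-5p (95% interval −0.08 to 0.23), 0.10 for mir-138-1 and 0.07 for mir-138-2, each with an adjusted p = 1 by limma, where 0% of 915 names were called and 3.93% had an unadjusted p under 0.05. In the amygdala, miR-138-5p was 869.9 ± 149 RPM in females and 925 ± 137 RPM in males, and in the ventral striatum 1054 ± 187 and 1099 ± 229 RPM (SD, n = 12 each). Of the treatment contrasts, the sexes were furthest apart for miR-138-5p in V S(EvC), where the ethanol difference in males minus that in females was −0.63 (95% interval −1.32 to 0.06, limma adjusted p = 0.931, with 0% of 933 names called and 3.11% at an unadjusted p under 0.05). The enriched control pools of that comparison held 781, 806 and 1108 RPM in females and 854, 1297 and 1451 RPM in males, and the ethanol-exposed pools 1078, 1105 and 1341 RPM in females and 827, 849.7 and 1412 RPM in males.

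The division of the signal between the genes was then examined. The lower of the 2 miR-138-5p lines held 23.4% to 36.8% of the summed miR-138-5p RPM, and mir-138-1 held 28.4% to 44.7% of the RPM of both hairpins. In reads, mir-138-2 exceeded the higher line plus miR-138-2-3p by only 3 to 62 (median 26). mir-138-1 exceeded the lower line plus miR-138-1-3p by 31 to 208 reads, 20.2% to 35.3% of its own reads. The number of reads of a hairpin was thus close to that of one miR-138-5p line plus its 3′ strand for mir-138-2, and larger for mir-138-1. Across libraries the log2 values of miR-138-5p followed those of mir-138-2 (r = 0.95) and mir-138-1 (r = 0.85, n = 48), names that may count the same reads. How reads that match both genes were divided is not given in the sources used here, so the levels of the hairpins relative to each other are uncertain.

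The share of the lower line fell into separate ranges. It was at most 29.9% in 26 libraries and at least 31.9% in 22, with 0 libraries between, a gap of 1.95 percentage points where the next widest was 0.82. In the ventral striatum 8 libraries lay under the gap, 2 from each treatment group and 4 of each sex, and 16 over it, 4 from each treatment group. In the amygdala 18 libraries lay under the gap and 6 over it, 2 each from non-enriched controls and both ethanol-exposed groups and 0 from enriched controls. The 6 over the gap had 363141 to 622111 mature reads, and the 18 others 415332 to 1287699. The 0 depends on where the gap fell. The 2 highest shares under it in the amygdala (29.8% and 29.9%) were of enriched controls, with 544042 and 415332 mature reads. The libraries were sequenced in sets of 8, and the labels do not give the set. In the ventral striatum the shares lay at 24.5% to 27.8%, 31.9% to 34.5% and 35.3% to 36.8%. Each of these ranges held a pool of every sex and treatment. The amygdala libraries with 363141 to 622111 mature reads (the next had 669367) also held a pool of every sex and treatment. Whether these groups were the sequencing sets was not tested. No main fit took them as a block, so any spread between them stayed in the error of the treatment tests. The mean share was 31.8% ± 4.5 in the ventral striatum and 28.7% ± 4.0 in the amygdala (SD, n = 24 each, permutation p = 0.0179), and on either side of the gap it was 25.96% and 26.8% or 34.7% and 34.6% in the ventral striatum and the amygdala. The median of mir-138-1 was 328.7 RPM under and 458 RPM over the gap in the ventral striatum, and 283 and 354 RPM in the amygdala. That of mir-138-2 was 688 under and 646 over the gap in the ventral striatum, and 571 and 513 RPM in the amygdala. As a hairpin may count the reads of its miR-138-5p line, a split by share can itself set these medians apart. The region difference was larger for mir-138-1 than for mir-138-2, and more libraries lay over the gap in the ventral striatum (16) than in the amygdala (6). Whether these go together was not tested.

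**Figure D5:**
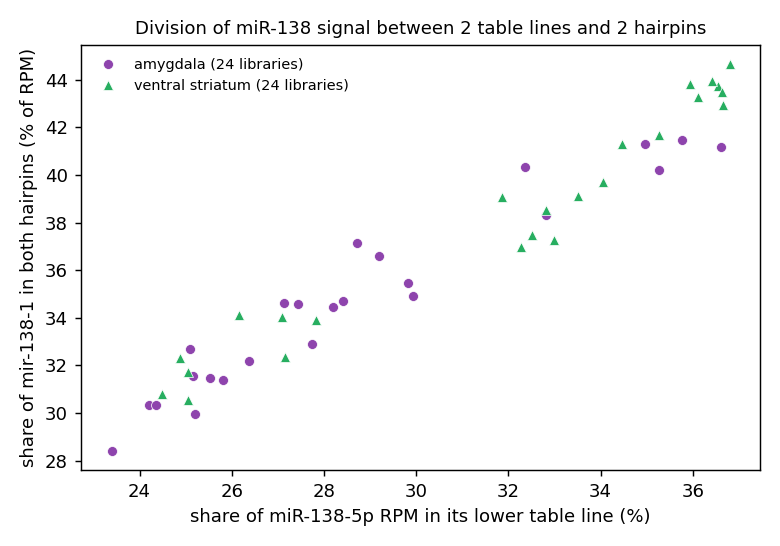
Share of mir-138-1 in the RPM of both hairpins (%, vertical axis) against the share of miR-138-5p RPM in its lower table line (%, horizontal axis), with 1 point per library, circles for the amygdala and triangles for the ventral striatum. The axes do not start at 0, and the points leave a gap between 29.9% and 31.9% on the horizontal axis, with 16 of 24 ventral striatum and 6 of 24 amygdala libraries to its right. The hairpins and the lines may count the same reads, so the shares on the axes are not independent.

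Among 182 other mature names with a mean of at least 100 RPM, the pattern of miR-103-3p across the 48 libraries was most like that of miR-138-5p (r = 0.76), followed by miR-212-3p (r = 0.75) and miR-22-3p (r = 0.73). With the 16 group means removed, r was 0.69, 0.73 and 0.72. The median r over all 182 names was 0.12. The least like was miR-130a-3p (r = −0.72, or −0.67 without group means). Of 201 precursor names, mir-103-2 (r = 0.87), mir-30c-1 (r = 0.86) and mir-30d (r = 0.85) were most like mir-138-1, and mir-29a (r = 0.77), mir-30e (r = 0.76) and mir-22 (r = 0.75) most like mir-138-2. Without group means these were 0.84, 0.80 and 0.87 for the first hairpin and 0.80, 0.72 and 0.77 for the second. The names share libraries and the scaling to a fixed sum, so the correlations are given as descriptions.

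miR-138 was last set beside 25 other mature miRNAs of spines and synapses, among them miR-134-5p, which limits spine growth, and miR-132-3p, which promotes it. All 25 were in the table, 12 of them at a higher mean than miR-138-5p, and 23 were tested. Between the regions 3 of 23 rose and 4 fell in the ventral striatum relative to the amygdala, 16 did not pass the test, beside 30.3% of all names called and 21.5% called higher, and the median log2 difference was 0.03 beside 0.084 for all names. The smallest p among those higher in the ventral striatum belonged to miR-34a-5p (180.5 ± 66.6 against 102 ± 29.1 RPM, log2 difference 0.78, limma adjusted p = 8.25e-05) and miR-191a-5p (37183 ± 3303 against 34384 ± 3070.03 RPM, 0.11, adjusted p = 0.0302 by limma). Among those lower it belonged to miR-218a-5p (1500.02 ± 406 against 2087 ± 429 RPM, −0.50, adjusted p = 0.0003 by limma) and miR-384-5p (2367 ± 179 against 2659 ± 267 RPM, −0.16, adjusted p = 0.00082 by limma). In the treatment contrasts 0 of 23 were called by limma. At an unadjusted p under 0.05 there was 1 of 23 in A N(EvC), A S(EvC), A C(SvN) and V E(SvN), where 4.51%, 3.85%, 2.64% and 1.82% of all names passed, and 0 in the other contrasts.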

How the data were processed

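The members, gene lists and tests were chosen with earlier results of these data known. Small RNA of 48 pools was sequenced on a MiSeq. The authors trimmed bases under phred 20, aligned the reads with Bowtie to Rn5, quantified them in Partek Flow against miRBase 21 and deposited a normalized signal per name, described as RPM. Mature and precursor values were checked to add up to 1000000 each per library. Low values gave the worth of 1 read (mature 93.0% to 99.6% and precursor 86.8% to 91.7% whole within 0.01), and as the others were fractions no count test was used. The floor of 3 reads allows for counting error alone, since the reads come from PCR.

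Of 1129 lines, those sharing a name were summed. Names above 0 in at least 6 of 24 (both regions 12 of 48) libraries entered two-sided limma fits (version 3.58.1 with trend, R 4.3.3) of log2(RPM + 1), in which each combination of sex, treatment and region was a group. Means were compared by exact permutation (924 divisions) or 100000 permutations in Python 3.11.15. Calls used a Benjamini-Hochberg adjusted p under 0.05. The fits were tested on simulated data.

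Replicate numbers were not used as a pairing in the main fits, though in males they went with technical values. The lower miR-138-5p line held 24.9% to 27.1% in male ventral striatum libraries of replicate 1. It held 31.9% to 34.5% in those of replicate 2 and 36.1% to 36.8% in those of replicate 3. Male amygdala libraries of replicate 2 had 363141 to 544042 mature reads, and the other male amygdala libraries 795393 to 1287699. In females the numbers did not follow the share in this way, as ventral striatum libraries of replicate 1 held 25.0% to 33.5%. The deviations from group means of same-numbered libraries correlated by 0.00068 (amygdala) and 0.0018 (ventral striatum) at the median. Of 36 pairs in each region, 12 and 16 exceeded 0.1. These pairs take both sexes together, so they do not show whether the technical groups should be blocked. Both regions came from the same rats, but the rats of each pool are not given in the sources used here. The p-values measure the spread between pools. Whether this holds the spread between sequencing sets is not known, since the set of each library is not given. Named in each comparison were the 3 members and the other arms of their hairpins, with the names most and least like them by correlation and, of the spine and synapse list, the 2 with the smallest p in each direction between regions. Alternatives are given with the limits. Microarrays were not analysed here.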

Additional observations from a re-analysis of the deposited data

How the results depend on the processing

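The p-values measure the spread between pools of 3 rats. Few reads limit the 3′ strands, while the members lay far above the floor. With log2 mature reads as a covariate, the region differences were 0.29 for miR-138-5p, 0.54 for mir-138-1 and 0.18 for mir-138-2 (limma adjusted p = 0.0152, 0.00023 and 0.144). Settings covered pseudocounts, filters, scalings, models, blocks and leaving out libraries. In the treatment, interaction and sex comparisons, no setting brought a member past the threshold. The region difference of mir-138-1 kept its call in every planned setting that used all 48 libraries, that of miR-138-5p in each of these except median-ratio rescaling, and where calls changed the cause was not tested. Log2 differences between regions that lost their call were, for miR-138-5p, mir-138-1 and mir-138-2 in this order, 0.040, 0.17 and −0.026 (reversed) within non-enriched controls, 0.24, 0.44 and 0.17 within enriched controls, 0.44, 0.55 and 0.41 within ethanol-exposed non-enriched rats, and 0.30, 0.47 and 0.24 within ethanol-exposed enriched rats. Within males they were 0.23, 0.37 and 0.17, and without the 13 amygdala libraries richest in choroid plexus miRNAs 0.092, 0.28 and 0.015. Within females miR-138-5p (0.28) and mir-138-2 (0.23), and with median-ratio rescaling the same names (0.19 and 0.12), lost theirs. mir-138-2 also did so without a filter (0.20), with log2 mature reads as a covariate (0.18), scaled without the choroid plexus names (0.17), and without the 2 libraries richest in them (0.16). The settings on choroid plexus names were chosen after seeing the data.

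The regions share rats. With the replicate number within sex and treatment as a block, the region difference was 0.25 for miR-138-5p, 0.41 for mir-138-1 (limma adjusted p = 0.0203 and 0.0029) and 0.20 for mir-138-2 (adjusted p = 0.0615), which lost its call. The replicate block within sex changed no other call, and it could not be fitted for the sex difference. Neighbouring library numbers correlated by 0.053 at the median (9 of 24 pairs over 0.1) and changed no call as a random block.

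Differences near 0 reversed. mir-138-2 in A S(EvC) was 0.026 with rescaling, 0.025 with the read covariate, 2.02 RPM unlogged, 0.0013 scaled without the choroid plexus names and 0.12 without the 13 libraries. mir-138-1 was −0.010 in A S(EvC), −0.021 in V S(EvC) and 0.034 in V C(SvN) with the read covariate, 11.9 RPM unlogged in V C(SvN), and in A E(SvN) −0.020 with rescaling and −0.00072 scaled without the choroid plexus names. Without the 2 libraries A E(SvN) was −0.027 for miR-138-5p, −0.013 for mir-138-1 and −0.039 for mir-138-2, and without the 13 it was −0.039 for mir-138-2.

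With 1 library left out, the region difference was 0.22 to 0.28 for miR-138-5p, 0.37 to 0.45 for mir-138-1 and 0.17 to 0.23 for mir-138-2, and the difference in the share of the lower line 2.81 to 3.39 points. For miR-138-5p, mir-138-1 and mir-138-2, the ranges that crossed 0 were −0.045 to 0.087, −0.070 to 0.14 and −0.059 to 0.041 in A S(EvC), −0.014 to 0.17, −0.080 to 0.13 and −0.027 to 0.20 in A E(SvN), −0.042 to 0.16, −0.033 to 0.24 and −0.065 to 0.14 in V S(EvC), −0.068 to 0.13, −0.15 to 0.096 and −0.064 to 0.17 in V C(SvN), and −0.18 to 0.0099, −0.20 to 0.095 and −0.17 to 0.0081 in V E(SvN). In the interaction of the ventral striatum they were −0.011 to 0.20 for miR-138-5p and −0.12 to 0.19 for mir-138-1. In the treatment contrasts, ranges on one side of 0 that moved by over 1.5 times were, in the same order, −0.33 to −0.15, −0.37 to −0.16 and −0.37 to −0.14 in A N(EvC), where the unadjusted p reached 0.0214, 0.034 and 0.0168, −0.26 to −0.10, −0.38 to −0.17 and −0.23 to −0.074 in A C(SvN), and 0.073 to 0.26, 0.024 to 0.29 and 0.070 to 0.24 in V N(EvC), with adjusted p of at least 0.349 by limma.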
